A study of Mus musculus with 20 samples.

Results

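The 9 genes described here encode the hypoxia-inducible factors (HIF) and the enzymes through which cells sense oxygen: Hif1a, Epas1, Hif3a, Arnt, Egln1, Egln2, Egln3, Vhl and Hif1an. They were chosen by name, though with earlier results of these data known. All 9 were found among the 14793 genes of the joint transcriptomes. Bulk RNA sequencing had been performed on the knees of 20 mice, with 5 biological replicates in each of 4 groups, each mouse giving 1 joint. All mice were male C57BL/6Nci and were operated at 12 weeks of age, so they were older when the joints were taken. All had surgical destabilization of the medial meniscus (DMM), a model of osteoarthritis in which the ligament that anchors the meniscus is cut. No unoperated joint was thus part of the comparison. Control joints received needle insertion alone in weeks 3 and 5 after surgery, with no fluid or cells. MSC joints received 250000 adipose-derived mesenchymal stromal cells at each of these times, TLR3-MSC joints the same number of cells stimulated for 2 h with polyinosinic-polycytidylic acid (pIC), an agonist of the RNA sensor TLR3, and STING-MSC joints cells stimulated for 2 h with 2′3′cGAMP, the ligand of the DNA-sensing adaptor STING, each at 10 µg/mL. All cells came from a single pool of donor adipose tissue, so the groups do not show how donors differ.

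HIF are dimers of an oxygen-labile alpha subunit, encoded by Hif1a, Epas1 (HIF-2 alpha) or Hif3a, and the stable partner ARNT, and they switch on genes of glycolysis, vessel growth and matrix modification. When oxygen is available, the prolyl hydroxylases encoded by Egln1, Egln2 and Egln3 mark the alpha subunit, the VHL ubiquitin ligase recognises the mark and the subunit is destroyed, while the asparaginyl hydroxylase encoded by Hif1an (factor inhibiting HIF) blocks its coactivator contact. Cartilage has no vessels and its chondrocytes live at low oxygen, and both HIF-1 alpha and HIF-2 alpha have been studied in osteoarthritis. Much of this control acts on the protein, which RNA levels do not show.

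HIF dimers read a short DNA core, ACGTG or GCGTG, and several genes of the pathway are known targets of the factors that they regulate, so the core was looked for in the promoters of the members. In the RefSeq promoter table (build GRCm38.p6), 8 of the 9 genes had an entry, and on either strand of the 250 bases before the start 4 of these 8 held ACGTG (Hif1a, Egln1, Egln2 and Egln3), 4 held GCGTG (Hif3a, Arnt, Egln1 and Egln2), and 6 held at least 1 of the cores. Among all 32851 promoters of the table, 16.57% held ACGTG, 28.16% GCGTG and 38.6% either. These shares are per promoter, while the members were counted per gene, and Egln2 had more than 1 promoter, so the figures are not strictly alike. The 4 windows of 25 bases around an ACGTG are shown 5′ to 3′ on the strand of the gene, with the core in capitals, because they belong to the alpha subunit gene and to the 3 hydroxylase genes that control its product. The position of each in GRCm39 was found by matching the promoter to that genome.
Hif1a: gctgagagcaACGTGggctggggtg
Egln1: gccgtggtgtACGTGcagcgcgcgc
Egln2: cctcctgtcaACGTGcggttcgcgc
Egln3: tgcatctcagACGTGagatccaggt
The Hif1a window lies at chr12:73954561-73954585 on the plus strand with its core 70 bases before the start, and the other windows lie on the minus strand at chr8:125676047-125676071 (Egln1, 68 bases before), chr7:26866261-26866285 (Egln2, 48 bases before) and chr12:54250875-54250899 (Egln3, 229 bases before). The start that RefSeq gives for Hif1a lies inside the longer gene of the deposited annotation, which begins at chr12:73948149. Hif1a held a further ACGTG that overlaps its own reverse complement. A match describes the letters only, and binding was not measured.

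Depth was high for 8 of the members. The libraries held 27955496 to 52529972 reads on genes, and each member other than Hif3a was covered by at least 437 reads in every joint, against as few as 13 reads for Hif3a. Values below are deposited normalized counts, that is reads divided by a size factor for each library. The joint blocks held several tissues, as 6 of 6 markers of skeletal muscle, synovial fibroblasts, chondrocytes, osteoblasts and osteocytes, endothelium, marrow neutrophils, erythroid cells, adipocytes and macrophages were above 0 in all 20 joints, while 4 of 6 keratinocyte markers were at 0 in at least 1 joint. Keratinocyte markers were uneven between joints, with sums from 66.2 in STING-MSC replicate 5 to 7863 in control replicate 1 and 24516 in TLR3-MSC replicate 4. In such bulk samples, fewer cells of a type and less RNA per cell cannot be told apart. MSC replicate 5 differed from the other libraries by 296 genes listed at 0, of which 239 were at 0 nowhere else.

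Levels were ranked per kilobase of exon, over all annotated exons of a gene, so that genes of different length can be compared. Epas1 stood first with a level of 674 ± 102 (SD over 20 joints) normalized counts per kb, above 87.4% of all genes. Egln1 followed at 651 ± 178 and Hif1an at 464 ± 114, with Egln2 at 432 ± 68.4 and Hif1a at 274 ± 89.8. Egln3 (259 ± 62.1), Arnt (248 ± 15.4) and Vhl (236 ± 23.1) lay close together, and Hif3a was far below all others at 5.73 ± 2.45 per kb. Only 2 of the 8 steps of this order held within every joint, Egln1 over Hif1an and Vhl over Hif3a, each in 20 of 20. Epas1 exceeded Egln1 in 12 of 20 joints, Hif1a exceeded Egln3 in 12 and Egln3 exceeded Arnt in 10, so these neighbours did not differ beyond their spread. By this measure Egln1 had the highest level of the prolyl hydroxylase genes and Epas1 of the alpha subunit genes. The divisor counts every annotated exon, 7795 bases for Egln2, and can exceed the length of the transcript made. The order by transcript length was not measured and may differ. Without the division by length, Egln1 (mean 5833 normalized counts) and Hif1an (5274) stood above Epas1 (3805).

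Between groups, the differences of the 9 genes were mostly small. Of 54 tests (9 genes in 6 pairs of groups), limma gave an unadjusted p of at most 0.05, the level that the call "changed" rests on here, in 3, and no adjusted p (FDR over all genes) of at most 0.05, the smallest being 0.443. By that unadjusted p limma called 8.55% of all genes in MSC, 3.58% in TLR3-MSC and 12.2% in STING-MSC against control. Against MSC it called 4.94% in STING-MSC and 3.88% in TLR3-MSC, and in STING-MSC against TLR3-MSC 2.57%. By FDR limma called 1 of all genes in MSC against control (0.00676%) and 0% in the other pairs. On the recovered reads edgeR also called 3 and DESeq2 4 by unadjusted p, and neither called any by FDR. In no pair of groups were the joints of a member fully separated. Such separation was found for 1.11% of all genes in MSC, 0.825% in TLR3-MSC and 2.17% in STING-MSC against control, 1.05% in STING-MSC and 0.581% in TLR3-MSC against MSC, and 1.35% in STING-MSC against TLR3-MSC. Over the 4 groups together limma's F test called none of the 9 (6.42% of all genes), though Arnt passed it without control replicate 1, MSC replicate 2 or STING-MSC replicate 5. The calls were Arnt in MSC against control and in TLR3-MSC against MSC, and Hif3a in STING-MSC against TLR3-MSC.

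**Figure D1:**
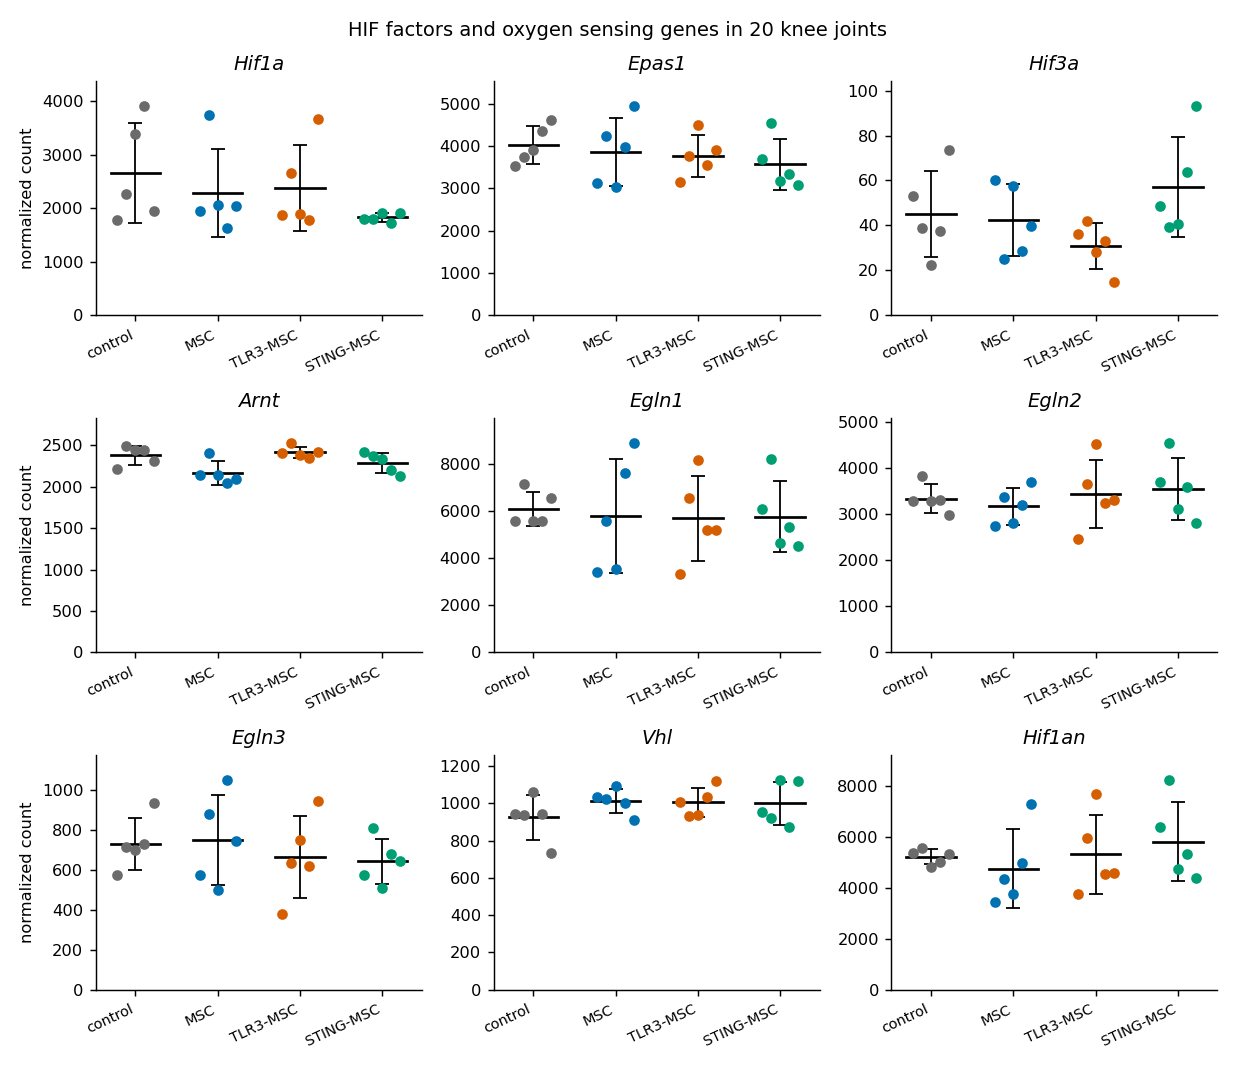
Normalized count of each of the 9 genes (y axis, linear from 0) in each joint, by group (x axis); points are joints in order of replicate number, the bar is the mean and the whiskers are 1 SD (n = 5). The Hif1a points of STING-MSC lie within 1732 to 1916 while each other group has at least 1 joint at 3393 or more, and Arnt is the tightest gene.

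Hif1a, the alpha subunit best known from acute hypoxia (12:73948149-73994305, GRCm39, plus strand), was measured at 1790.0, 2259, 3393, 3911 and 1945 normalized counts in control replicates 1 to 5. The MSC joints had 1945, 3738, 2071, 1639 and 2039, and the TLR3-MSC joints 1872, 2655, 1893, 1780.4 and 3673. STING-MSC joints had 1795, 1809, 1915, 1732 and 1916. Most joints therefore lay near the STING-MSC values, and 4 stood above the rest: control replicates 3 and 4, MSC replicate 2 and TLR3-MSC replicate 5. No STING-MSC joint was among these 4, and the coefficient of variation was 4.4% in that group against 35.3% in control, 36.3% in MSC and 34.0% in TLR3-MSC.

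Hif1a averaged 1833 ± 80.3 over the 5 STING-MSC joints and 2659.5 ± 940 over the 5 controls (SD), a log2 fold change of -0.47 (standard error 0.24, 95% interval -0.97 to 0.03). STING-MSC joints overlapped the lower controls, and 1 of 5 lay below all of them. Limma called 0 of the 9 members in this comparison, beside 12.2% of all genes. For Hif1a limma's p was 0.0660 (FDR 0.443), while the exact two-sided permutation test gave p = 0.0476, and edgeR (0.0372), DESeq2 (0.0350) and limma on these 2 groups alone (0.0360) would call it. Without control replicate 1 or 5 limma called it too, at log2 fold changes of -0.59 and -0.56, and without control replicate 4, the highest joint, it was -0.31. In MSC and TLR3-MSC joints, Hif1a differed from control by log2 fold changes of -0.21 (95% interval -0.71 to 0.29) and -0.15 (-0.65 to 0.35), and neither passed the test.

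Markers of connective tissue moved with the 4 high joints. These 4 held 406482 to 592526 summed normalized counts of the 6 synovial fibroblast markers (Prg4, Pdgfra, Thy1, Pdpn, Clic5 and Htra1), above the 22657 to 392519 of the other 16 joints, and they were also the highest 4 for the chondrocyte markers (95564 to 118657, against at most 77531), the osteoblast and osteocyte markers (26588 to 36784, against at most 23399) and the endothelial markers (11528 to 14268, against at most 11189). Skeletal muscle markers did not set them apart, at 1155170 to 1732460 within a range of 728105 to 3026500. The part of these tissues in the Hif1a level was not tested.

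By the deviations of the 20 joints from their group means, the genes most like Hif1a of all in the table were Lox (Pearson's r = 0.97), the lysyl oxidase that crosslinks collagen and a known HIF target, Cthrc1 (0.97), a secreted protein of matrix-forming fibroblasts, and Srpx2 (0.97). The 4 joints with high Hif1a held 6306 to 11791 normalized counts of Lox against 1259 to 4714 in the other 16, and among those 16 alone, a set chosen after the values were seen, r with Lox was 0.91 (Spearman's rho 0.81). Joints share their library, its size factor and its tissue makeup in both measures, and these values are a description.

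**Figure D2:**
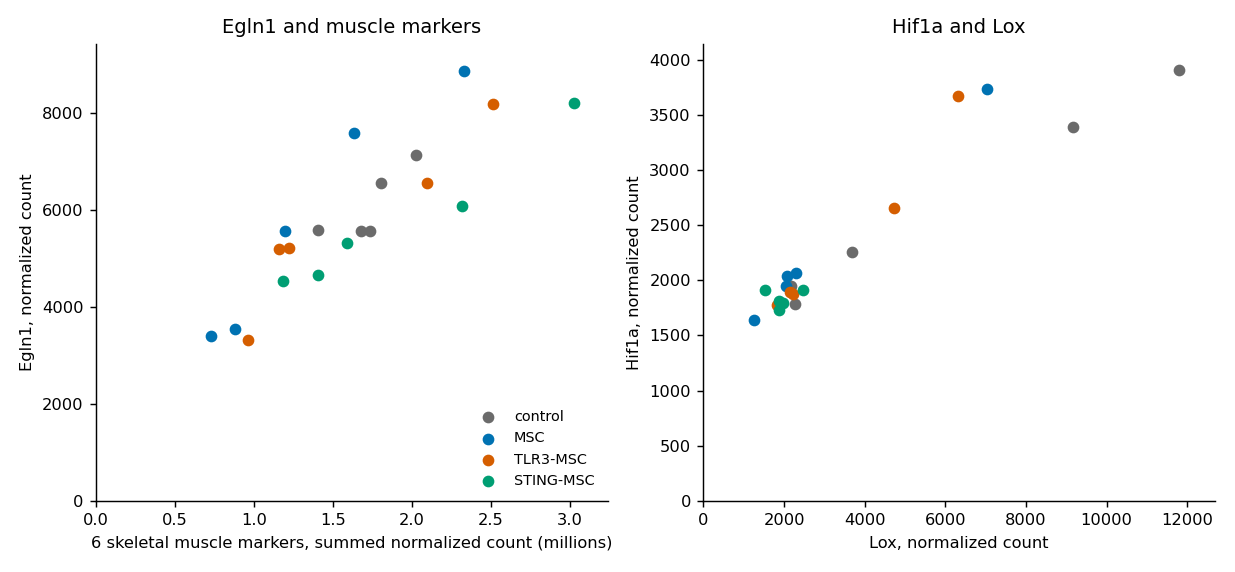
Left, Egln1 (y axis, normalized count) against the summed normalized count of 6 skeletal muscle markers (x axis, scaled as its label states); right, Hif1a against Lox (normalized counts); each point is a joint, coloured by group. Egln1 climbs with the muscle markers in all groups, and 4 joints with Hif1a of 3393 or more lie apart at Lox of 6306 to 11791.

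Epas1 (17:87061128-87140839, plus strand), which encodes HIF-2 alpha, abundant in endothelium and linked to catabolic genes of cartilage, varied less between joints than Hif1a in the groups other than STING-MSC, where its coefficient of variation was 16.8%. Control joints had 3529, 3749, 3894, 4351 and 4619 normalized counts and MSC joints 3118, 4233, 3035, 3973 and 4939. The TLR3-MSC joints had 3138, 3761, 4494, 3550.5 and 3903, and the STING-MSC joints 3679, 4548, 3163, 3341 and 3077. All groups overlapped, the STING-MSC mean of 3561.5 ± 598 being the lowest and the control mean of 4028.5 ± 447 the highest, at a log2 fold change of -0.19 (95% interval -0.47 to 0.10). No pair of groups passed the test.

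Within each joint Epas1 exceeded Hif1a in all 20 (these are log2 ratios of normalized counts and not per length). The mean log2 ratio was 0.66 ± 0.48 in control, 0.79 ± 0.48 in MSC, 0.72 ± 0.45 in TLR3-MSC and 0.94 ± 0.26 in STING-MSC joints (SD, n = 5). No pair of groups differed beyond this spread, the smallest of 6 exact two-sided permutation p being 0.270 (0.865 after Benjamini-Hochberg adjustment).

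Hif3a (7:16765432-16796353, minus strand) encodes the least understood alpha subunit, some forms of which restrain the others. Its counts were 52.9, 38.7, 22.6, 37.4 and 73.5 in control joints and 60.3, 25.3, 57.7, 28.8 and 39.7 in MSC joints. TLR3-MSC joints had 36.2, 42.0, 28.2, 33.1 and 14.7, and STING-MSC joints 48.5, 39.1, 40.7, 63.7 and 93.1. The TLR3-MSC joints were the lowest group and the STING-MSC joints the highest, with 3 of the 5 STING-MSC joints above all TLR3-MSC joints. Between these groups Hif3a rose by a log2 fold change of 0.87 (95% interval 0.13 to 1.60, limma p = 0.0230, FDR 0.890; exact two-sided permutation p = 0.0238), and it was the only member of 9 called there, beside 2.57% of all genes. The call depended on the extreme joint of either group: without TLR3-MSC replicate 5 the log2 fold change was 0.63, and without STING-MSC replicate 5 it was 0.67, neither past the threshold. Against control, Hif3a passed in no treated group, at -0.07 (MSC), -0.51 (TLR3-MSC) and 0.36 (STING-MSC). Erythroid markers followed it in part (r = 0.58 over 20 joints, 0.50 without the 2 farthest). Endothelial markers ran the other way (-0.56, and -0.38 without the 2 farthest), as did synovial fibroblast markers (-0.41 and -0.65). Among the 16 joints without the highest Hif1a, r was 0.45 for erythroid, -0.24 for endothelial and -0.07 for synovial fibroblast markers. The part of these markers in the result was not tested.

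Arnt (3:95341699-95404552, plus strand), the shared partner of all alpha subunits, had a within-group SD of 0.07 on the log2 scale, and only 1.14% of genes varied less. Control joints had 2215, 2495, 2440.5, 2440.3 and 2308 normalized counts. MSC joints had 2147, 2406, 2138, 2049.8 and 2089, and TLR3-MSC joints 2405, 2525, 2382, 2353 and 2421. STING-MSC joints had 2414, 2370.5, 2341, 2204 and 2126. MSC joints other than replicate 2 lay below every control joint, while the TLR3-MSC joints overlapped the control joints, with 1 of 5 above all of them.

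Arnt fell in MSC against control by 0.14 on the log2 scale (2166 ± 140 against 2380 ± 115, limma p = 0.0277, FDR 0.507; exact two-sided permutation p = 0.0397), 1 of 9 members beside 8.55% of all genes. It was higher in TLR3-MSC than in MSC by 0.16 (2417 ± 65.5, p = 0.0115, FDR 0.978; exact p = 0.0317), again 1 of 9, beside 3.88%. The second call held in each of the 10 fits that left a joint out (0.14 to 0.20). The first was lost in 5 of 10, without control replicate 2, 3 or 4 or MSC replicate 4 or 5 (-0.13 to -0.12), with edgeR (-0.12), and with limma on these 2 groups alone (-0.14). Against control, TLR3-MSC gave 0.02 (95% interval -0.10 to 0.14) and STING-MSC -0.05, neither past the threshold, and STING-MSC against MSC (0.08) passed only without MSC replicate 2, at 0.12. Arnt tracked the synovial fibroblast markers over the 20 joints (r = 0.64, and 0.47 without the 2 farthest). It also tracked osteoblast and osteocyte markers (0.57 and 0.62) and endothelial markers (0.58 and 0.47). Marrow neutrophil (-0.49 and -0.63) and erythroid markers (-0.50 and -0.52) ran the other way. The synovial fibroblast markers summed to 22657 to 486694 in MSC, 167681 to 592526 in control and 218839 to 452140 in TLR3-MSC joints. The part of these tissues in the Arnt result was not tested.

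**Figure D3:**
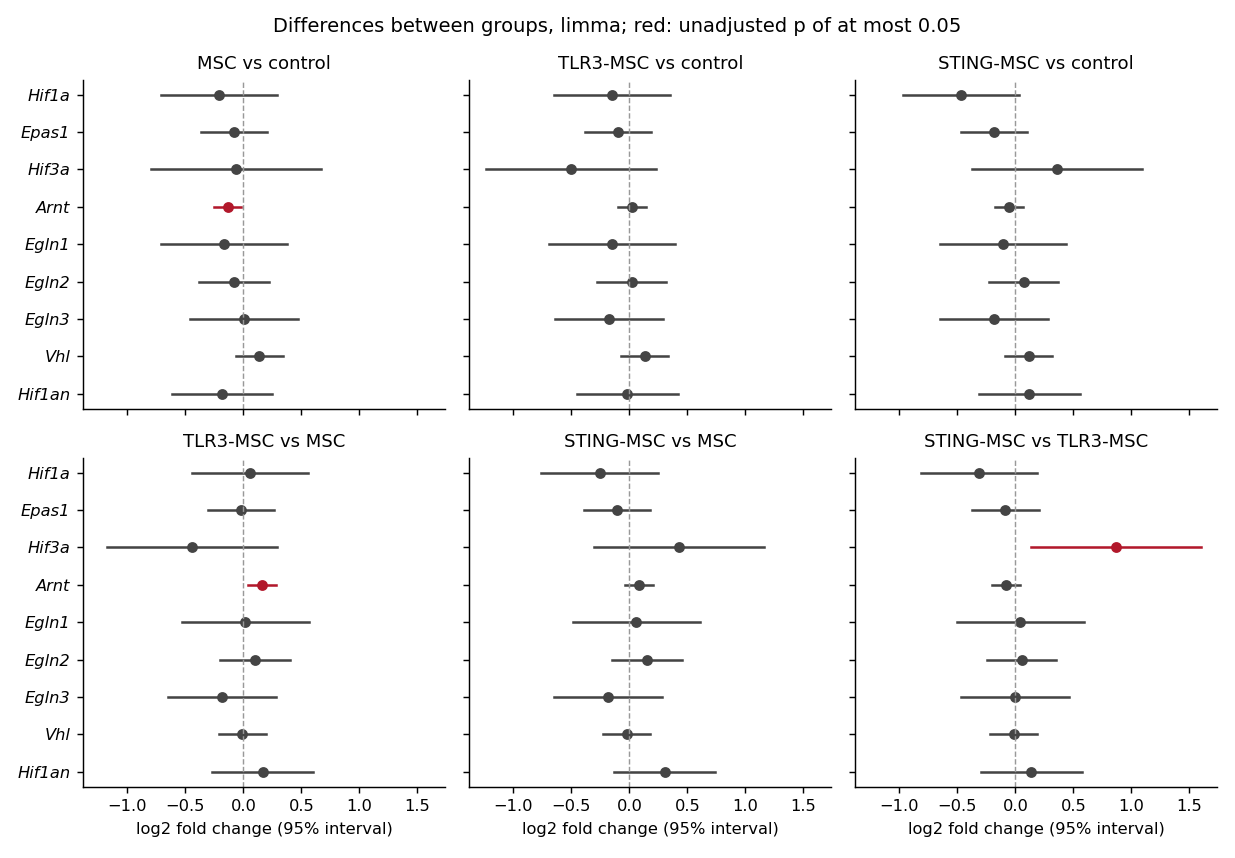
Log2 fold change (x axis, limma on log2 of normalized count + 1) of each gene in the 6 pairs of groups, with its 95% interval; red marks an unadjusted p of at most 0.05. The 3 red intervals are Arnt in MSC against control and in TLR3-MSC against MSC, and Hif3a in STING-MSC against TLR3-MSC.

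Of the oxygen sensors, none of the 3 prolyl hydroxylase genes passed in any of the 6 pairs of groups. In TLR3-MSC against control, where 3.58% of all genes were called, and in STING-MSC against MSC, where 4.94% were called, no member passed. Egln1 (8:125635326-125676064, minus strand) encodes PHD2, the main hydroxylase of HIF-1 alpha. Its counts were 5561, 7141, 5591, 5571 and 6551 in control, 3409, 5559, 3551, 7596 and 8871 in MSC, 3326, 6551, 8182, 5213 and 5197 in TLR3-MSC and 6072, 8207, 4660.2, 5319 and 4536 in STING-MSC joints. The group means stayed between 5694 and 6083, while single joints of the MSC group spanned 2.6-fold. The 95% intervals of its log2 fold changes against control lay between -0.71 and 0.44 over the treated groups. Differences within each interval were not excluded.

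This spread of Egln1 went with the amount of skeletal muscle RNA. Its deviations from the group means had r = 0.98 with the mean of the 6 muscle markers (Acta1, Ckm, Myh4, Tnnt3, Mylpf and Myh1; Spearman's rho 0.96, r = 0.97 without the 2 farthest joints, n = 20). MSC replicates 1 and 3 and TLR3-MSC replicate 1 had the lowest Egln1, and they had the 3 lowest muscle sums, 728105, 879626 and 962298, in a series that reached 3026500. Among the genes most like Egln1 were Slc25a4, the ADP/ATP carrier of muscle mitochondria (r = 0.99), and Synpo2 (0.99). None of the 6 muscle markers passed in any pair of groups. The part of muscle in the levels of Egln1 was not tested beyond these values.

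Hif1an (19:44551289-44564714, plus strand) behaved likewise, with r = 0.96 to the muscle markers and 0.93 to Egln1, and its nearest genes were Ubr3, Psme4 and Fsd2 (r = 0.99 each). Control joints were close together at 5353, 5562, 4814, 5022 and 5311 normalized counts. The treated groups spread widely, with 3427, 4339.9, 3761, 4963 and 7301 in MSC, 3777, 5977, 7699, 4544 and 4572 in TLR3-MSC and 6396, 8221, 4754, 5319.9 and 4369 in STING-MSC joints. All groups overlapped. STING-MSC against MSC gave the largest log2 fold change, 0.30 (95% interval -0.13 to 0.74, exact permutation p = 0.254), which passed in limma only when MSC replicate 5 was left out, at 0.47.

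Egln2 (7:26858083-26866228, minus strand), which encodes PHD1 and overlaps the gene Cyp2t4 on the other strand, had 3289, 3836, 3275, 3313 and 2973 normalized counts in control and 2737, 3373, 2809, 3204 and 3702 in MSC joints. It had 2456, 3654, 4515, 3249 and 3297 in TLR3-MSC and 3689.8, 4534, 3101, 3586 and 2796 in STING-MSC joints, and the groups overlapped throughout. Its r with the muscle markers was 0.86.

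Egln3 (12:54225767-54250647, minus strand) encodes PHD3, whose gene is itself strongly induced by HIF in many cells. Joints of the control group had 572, 713, 697, 727 and 937 normalized counts, and MSC joints 572, 881, 500.5, 1048 and 743. TLR3-MSC joints had 377, 634, 747, 617 and 943 and STING-MSC joints 573, 809.7, 508, 678 and 642. The 6 log2 fold changes lay between -0.19 and 0.00, none past the threshold. Among its nearest genes were Lmcd1 (r = 0.88) and Mybpc1 (0.85), a myosin-binding protein of slow muscle. The log2 ratio of Egln3 to Egln1 within joints averaged -3.07 ± 0.22 in control, -2.90 ± 0.40 in MSC, -3.10 ± 0.39 in TLR3-MSC and -3.15 ± 0.25 in STING-MSC joints, and no pair of groups passed the exact two-sided permutation test (smallest p = 0.278). Without MSC replicate 5 this ratio passed in MSC against control (difference 0.34, exact permutation p = 0.0476) and in STING-MSC against MSC (difference -0.42, exact permutation p = 0.0397).

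Vhl (6:113600920-113608595, plus strand), the substrate receptor of the ligase, was measured at 942, 939, 1061, 945 and 733 normalized counts in control and 1031, 1024, 1090.5, 1002 and 909 in MSC joints. TLR3-MSC joints had 1007, 934, 937, 1033 and 1122, and STING-MSC joints 956, 921, 1123, 875 and 1122. Control replicate 5 was the lowest of the 20 joints. The log2 fold changes against control were 0.14 (MSC), 0.13 (TLR3-MSC) and 0.12 (STING-MSC), each with a 95% interval that included 0, and without control replicate 5 they were 0.057, 0.049 and 0.035. Vhl ran against muscle (r = -0.58).

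Members thus fell into sets by how they varied from joint to joint. Epas1 had r = 0.89 and Egln3 0.63 with the muscle markers, next to Egln1, Hif1an and Egln2, and 10 correlations among these 5 genes ran from 0.47 to 0.93. Hif1a (r = -0.08) and Arnt (0.15) did not follow muscle, and had r = 0.62 with each other. Hif3a correlated with no other member above 0.

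**Figure D4:**
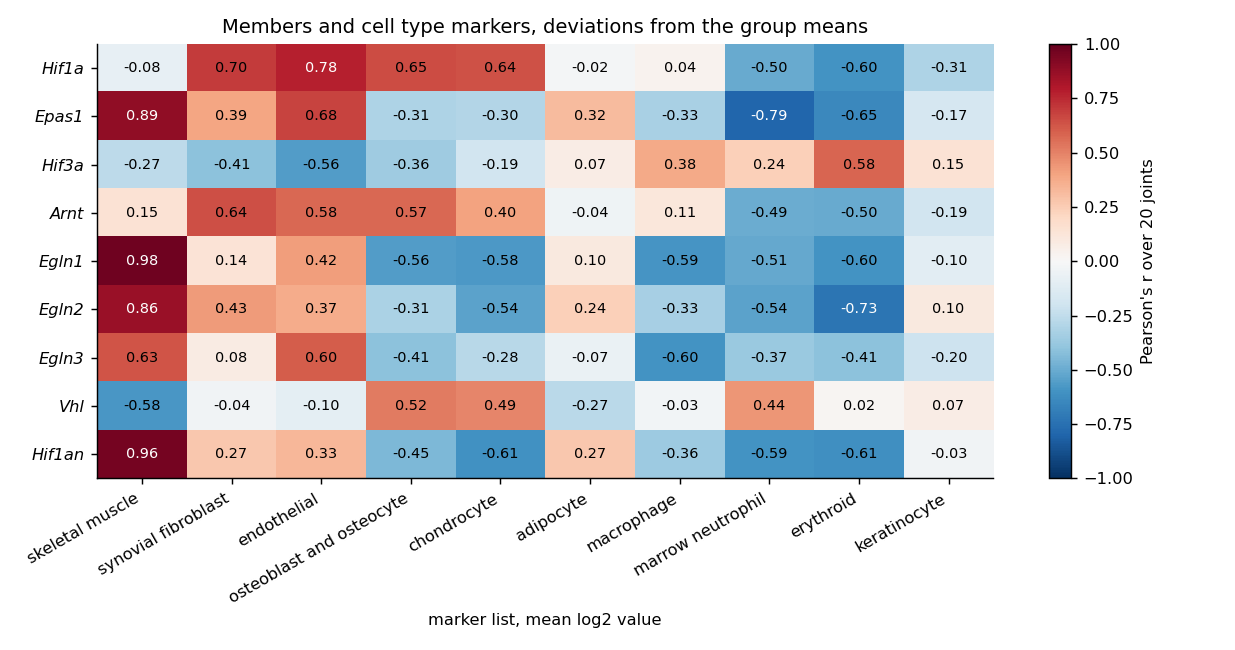
Pearson's r (number and colour) between each gene (rows) and the mean log2 value of 6 markers of each cell type (columns), over 20 joints after removing the group means. The muscle column is highest for Egln1 (0.98), Hif1an (0.96), Epas1 (0.89) and Egln2 (0.86), and Hif1a is highest with endothelial markers (0.78). This last value is 0.40 among the 16 joints without the 4 with the highest Hif1a.

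The calls below rest on limma as for the members, and exact permutation p-values are two-sided. Of 25 partner genes of the pathway measured, those that changed most often were the coactivators and their brake. Of these, 3 of 4 passed in MSC (8.55% of all genes) and in STING-MSC against control (12.2%). This role was picked out of the list by these counts. Beside it, 1 of 4 HIF partners or relatives passed in MSC and 1 of 7 genes of HIF stability in STING-MSC. The level of Crebbp, the acetyltransferase CBP, rose in all 3 treated groups against control, by log2 fold changes of 0.18 (MSC, limma p = 0.0148, exact permutation p = 0.0238, FDR 0.414), 0.21 (TLR3-MSC, 0.00517, 0.00794 and FDR 1.00) and 0.17 (STING-MSC, 0.0172, 0.0238 and FDR 0.358). Its counts were 1979.5, 2077, 2104, 1866 and 1926 in control and 2266, 2212, 2205, 2527 and 2285 in TLR3-MSC joints, and these do not overlap (0.825% of all genes). The 3 comparisons share the same control joints, and of the fits that left a joint out only the one without STING-MSC replicate 1 lost a call of Crebbp. Ep300, the related acetyltransferase p300, rose by 0.21 in MSC (exact permutation p = 0.0476) and 0.21 in STING-MSC joints (exact permutation p = 0.00794). Cited2, a HIF-induced brake that competes with HIF-1 alpha for these coactivators, rose by 0.35 in MSC (exact permutation p = 0.0238, FDR 0.324) and 0.37 in STING-MSC joints (exact permutation p = 0.0317, FDR 0.290), from 2714 ± 356 in control to 3457 ± 405 and 3513 ± 437. Each call of Ep300 was lost in 3 of 10 fits that left a joint out, and those of Cited2 in none.

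Marrow neutrophil markers moved the same way, with 3 of 6 called higher in MSC and 4 of 6 in STING-MSC joints against control. Their summed levels were 326860 to 571104 in control, 463239 to 786057 in MSC and 467099 to 707895 in STING-MSC joints. In TLR3-MSC against control 0 of 6 passed, with a median log2 fold change of 0.21, beside 0.50 in MSC and 0.49 in STING-MSC. Adipocyte markers were also higher, 6 of 6 in each treated group, with medians of 0.38 (MSC), 0.95 (TLR3-MSC, where 2 passed) and 0.67 (STING-MSC). Endothelial markers were lower, 6 of 6 in each, with medians of -0.24, -0.38 and -0.52. The part of these markers in the results was not tested. Bhlhe41, a HIF-responsive repressor, fell by 0.62 in MSC against control (exact permutation p = 0.0317). Siah2, a ligase that degrades prolyl hydroxylases, fell by 0.30 in STING-MSC against MSC (exact permutation p = 0.0159), and Sim2, a relative of the HIF subunits, rose there by 0.53 (limma p = 0.0496, exact permutation p = 0.103). Usp20, a deubiquitinase that stabilises HIF-1 alpha, fell by 0.21 in STING-MSC against control (exact permutation p = 0.0476) and was named after its value was seen. With single joints left out, the call was lost in 6 of 10 fits for Usp20 and also with quantile normalization, in 6 for Sim2 and also with edgeR and in limma on these 2 groups alone, in 4 for Siah2 and in none for Bhlhe41. The VHL ligase subunits Elob, Eloc, Cul2 and Rbx1 and the ARNT relative Arnt2 passed in no pair of groups, with log2 fold changes for Elob, Eloc and Rbx1 within -0.07 to 0.04. By counts, 4 of 25 passed in MSC against control (3 higher; 8.55% of all genes passed), 1 in TLR3-MSC (higher; 3.58%) and 4 in STING-MSC (3 higher; 12.2%), 2 in STING-MSC against MSC (1 higher; 4.94%), and 0 in the other pairs. The median over the 25 stayed within -0.04 to 0.04, beside -0.04 to 0.03 over all genes, and no FDR was at most 0.05.

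Of 43 HIF target genes measured, 2 passed in MSC against control (both higher), 2 in TLR3-MSC (1 higher) and 7 in STING-MSC (2 higher, 5 lower), where 8.55%, 3.58% and 12.2% of all genes passed, with medians of -0.04, -0.09 and -0.07 beside -0.04, -0.01 and 0.01 over all genes. In STING-MSC against MSC 3 passed (2 higher), in TLR3-MSC against MSC 1 (lower) and in STING-MSC against TLR3-MSC 0 by limma (edgeR called 1 and DESeq2 3), and none had an FDR of at most 0.05.

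Ddit4, also called REDD1, a stress and hypoxia-induced inhibitor of mTORC1, had the smallest unadjusted p among the targets, though Lox and Loxl2 differed by larger folds and Pfkfb4 had a smaller FDR. MSC joints had 810.2, 1563, 1529, 1407 and 937 normalized counts, TLR3-MSC joints 606, 645, 543, 674 and 1027, and STING-MSC joints 528, 629, 706, 581 and 450.0. Every STING-MSC joint lay below every MSC joint (1.05% of all genes are separated in this pair). Ddit4 was lower by a log2 fold change of -1.07 in STING-MSC (limma p = 0.00011, exact permutation p = 0.00794, FDR 0.539) and -0.82 in TLR3-MSC (0.00146, 0.0238 and FDR 0.978) than in MSC joints. Control joints, at 812, 681, 994, 1477 and 904, overlapped all 3 treated groups, and against them Ddit4 was lower by -0.72 in STING-MSC (exact permutation p = 0.0159) and by -0.46 in TLR3-MSC joints (limma p = 0.0496, exact permutation p = 0.103), the last lost in 7 of 10 fits that left a joint out.

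Pfkfb4, which makes the regulator of glycolytic flux fructose 2,6-bisphosphate, rose in STING-MSC against control by 0.37 (3099 ± 162 against 2407 ± 226, limma p = 0.000197, exact permutation p = 0.00794, FDR 0.208), with joints at 3332, 3188, 2923, 2996 and 3058 against 2669.7, 2552, 2075, 2353 and 2385, which did not overlap (2.17% of all genes). It rose by 0.19 in MSC (limma p = 0.0307, exact permutation p = 0.0635) and 0.21 in TLR3-MSC joints (exact permutation p = 0.0476). Ero1a, an oxidase of protein folding in the endoplasmic reticulum, rose by 0.32 in MSC (limma p = 0.0226, exact permutation p = 0.0794) and 0.33 in STING-MSC joints (exact permutation p = 0.0317). The MSC call of Ero1a was lost in 5 of 10 fits that left a joint out and the STING-MSC call in 1, and the MSC and TLR3-MSC calls of Pfkfb4 in 4 and 2, while its STING-MSC call held in all 10. Pfkfb3 was higher in STING-MSC than MSC joints by 0.50 (limma p = 0.0306, exact permutation p = 0.0952), and without STING-MSC replicate 2 by 0.33, which did not pass. The other 13 glycolysis genes, with the glucose carrier Slc2a1 among them, passed in no pair of groups.

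The set of vessel, matrix and secreted targets leaned lower in STING-MSC against control, with 10 of 11 below 0 and a median log2 fold change of -0.76, and 3 of the 11 passed, beside 12.2% of all genes. It also lay lower in MSC (8 of 11 below 0, median -0.38) and TLR3-MSC joints (9 of 11, median -0.18), where 0 passed, and these comparisons share the control joints. The 3 were Lox (-1.24), its relative Loxl2 (-1.39) and the vasoconstrictor Edn1 (-0.92), with exact permutation p of 0.0238, 0.0159 and 0.00794, and among the other targets the circadian repressor Bhlhe40 fell by 0.66 (exact permutation p = 0.0397). These 4 were named after their values were seen. Lox was at 2262, 3679, 9162, 11791 and 2162 normalized counts in control and 1964, 1884, 2459, 1870.3 and 1528 in STING-MSC joints. When single joints were left out, the call of Lox was lost in 2 of 10 fits (without control replicate 3 or 4), that of Edn1 in 2 (control replicate 4 or STING-MSC replicate 2), that of Bhlhe40 in 5 (control replicate 3 or 4 or STING-MSC replicate 3, 4 or 5) and that of Loxl2 in 7 (control replicate 2, 3 or 4 or STING-MSC replicate 2, 3, 4 or 5). Synovial fibroblast markers had a median of -0.89 and endothelial markers of -0.52 in this comparison, with 1 and 4 of 6 passing, all lower, and their part in the result was not tested. Vegfa, the main vessel growth factor, gave -0.20 there (exact permutation p = 0.294) and passed in no pair, nor did Adm, Bnip3, Car9 or Ankrd37.

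**Figure D5:**
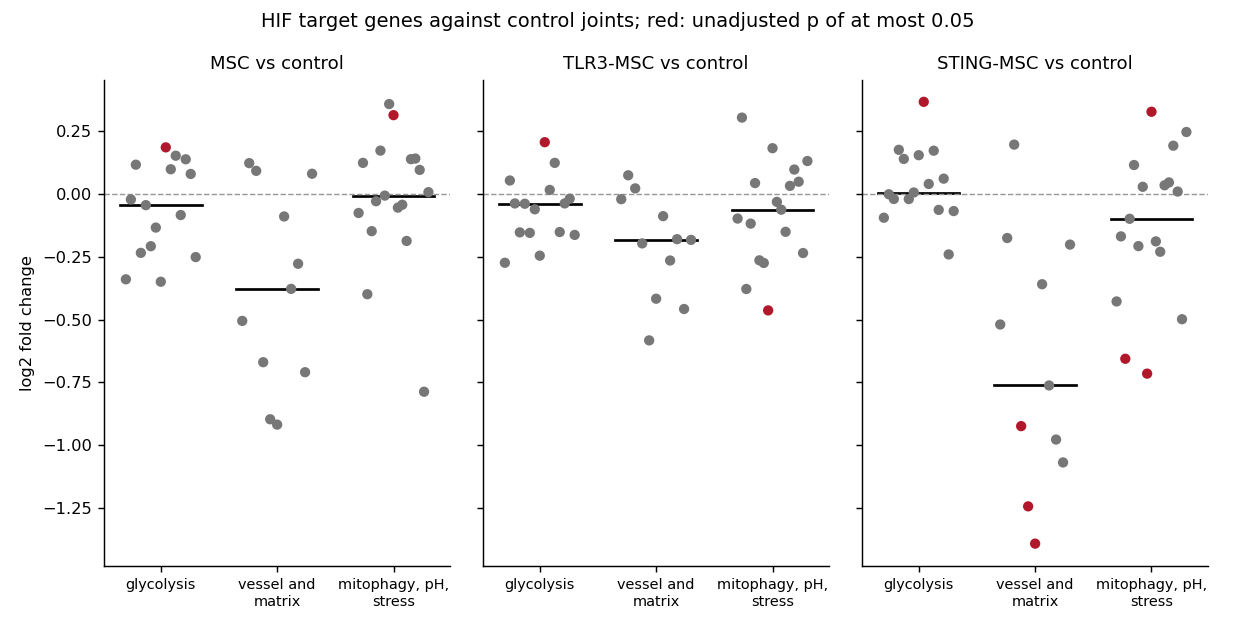
Log2 fold change (y axis) of 43 HIF target genes against control in the 3 treated groups, by role (x axis); each point is a gene, the bar is the median, and red marks an unadjusted p of at most 0.05. In STING-MSC the vessel and matrix genes lie lowest, with a median of -0.76 and 10 of 11 below 0.

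Across joints, 2 sets of targets followed the 2 main alpha subunits differently by their medians. By deviations from the group means over 20 joints, the 11 vessel and matrix targets had a median r of 0.79 with Hif1a and 0.31 with Epas1, and the 15 glycolysis genes -0.06 with Hif1a and 0.67 with Epas1, where the highest was Ldha (0.84), an enzyme abundant in muscle. The 17 targets of mitophagy, pH, stress and other roles had medians of 0.23 with Hif1a and 0.14 with Epas1. Over all 14792 other genes the medians were -0.03 and -0.01. Single targets ranged widely, from -0.81 (Mxi1) to 0.97 (Lox) with Hif1a and from -0.92 (Ero1a) to 0.90 (Bnip3) with Epas1. Glycolysis genes ran from -0.66 (Pfkfb4) to 0.88 (Slc2a1) with Hif1a and from -0.74 (Pgam1) to 0.84 with Epas1. Among the 16 joints without the highest Hif1a, the median with Hif1a was 0.55 for the vessel and matrix targets and 0.06 for glycolysis. These correlations share libraries, size factors and tissue makeup, with muscle following Epas1 and connective tissue following Hif1a, and they describe the joints only.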

How the data were processed

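Joints had been taken en bloc (cartilage, synovium, capsule and adjacent bone); the study's methods place collection 8 weeks after surgery and its results 24 h after injection, and which holds was not settled. The authors aligned the reads with STAR (version 2.7.3a) to GRCm39 and counted them per gene with HTSeq, and the deposited values are these counts divided by a median-ratio size factor per library, a normalized signal. The setting for strand and any filter on low counts are not given in the sources used here, so overlapping genes were not separated. From 99.8% to 99.9% of values per library equalled a whole number of reads after rescaling (within 0.1 read), and the reads so recovered gave the depth of each library, which limits mainly Hif3a.

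The labels gave each joint's group and number. The main test was limma (version 3.58.1, R 4.3.3) with trend on log2(normalized count + 1) over all 20 joints and 14793 genes, since the values are normalized; the minimum mean of 5 removed no gene, the lowest mean being 9.40. Calls rest on the unadjusted limma p (0.05 or less), and FDR was computed by the Benjamini-Hochberg method. Folds are on the log2(normalized count + 1) scale. Exact permutation tests were two-sided, with 0.00794 the smallest p for 5 against 5 joints. P-values measure the spread between these 20 mice. No 2 libraries of the same group agreed within sampling noise (chi-square of at least 24.1 per gene).

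The members and lists were chosen with earlier results of these data known. The text names all 9 members, the 3 genes of each list with the smallest p per comparison among those called, 13 set genes (Arnt2, Cul2, Elob, Eloc, Rbx1, Cited2, Ep300, Vegfa, Slc2a1, Bnip3, Car9, Adm and Ankrd37) and the 3 genes most correlated with Hif1a, Epas1, Hif3a and Egln3; some of the most correlated genes are not reported here, and others were chosen after their values were seen. For Epas1 these 3 were Poldip2, Acadsb and Tmem65 (r = 0.96, 0.96 and 0.95) and for Hif3a they were Oga, Cenpj and Secisbp2 (0.93, 0.85 and 0.82). Npas3 and Epo, of the lists, were not analysed here. As alternatives, the pseudocount was set to 0.5 or 5 and the minimum mean to 20 or none, the fit was limited to the pair of groups compared, the values were quantile normalized, the recovered reads were tested with edgeR (version 4.0.16) and DESeq2 (version 1.42.0), the labels' replicate number entered as a block, and single joints were omitted. The fits were tested on simulated data. Promoters came from the RefSeq table, and no protein sequences were used here.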

Additional observations from a re-analysis of the deposited data

Results flagged for a closer look

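In 36 groups of 5 joints (9 genes in 4 groups), 2 held a joint set apart from the other 4 by Dixon's criterion, which chance alone would give in about 1 of 20 groups. Both were MSC replicate 2. Hif1a was at 3738 normalized counts there against 1639 to 2071 in the other MSC joints, a gap of 0.794 of the range, and Arnt was at 2406 against 2049.8 to 2147, a gap of 0.728. This joint also had the highest sums of chondrocyte (118657) and synovial fibroblast markers (486694) in the MSC group, whose part in the result was not tested. Without it, Arnt in MSC against control gave a log2 fold change of -0.18, still past the threshold.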

How the results depend on the processing

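With the pseudocount at 0.5 or 5, a minimum mean of 20 or no filter, the number of members called was that reported in all 6 pairs of groups. In limma on 2 groups alone, 0 members passed in MSC against control and 1 in STING-MSC against control. With edgeR these were 0 and 1, and with DESeq2 1 passed in STING-MSC against control. Partner genes called were 2 in TLR3-MSC against control (2 groups alone, or quantile normalization), 2 in STING-MSC against control (quantile), 1 in STING-MSC against MSC (2 groups alone, or edgeR) and 1 in STING-MSC against TLR3-MSC (2 groups alone). Target genes called were 1 (2 groups alone) and 4 (DESeq2) in MSC against control, 1 in TLR3-MSC against control (2 groups alone, or the replicate block), and in STING-MSC against TLR3-MSC 2 (2 groups alone), 1 (edgeR) and 3 (DESeq2). The cause was not tested.

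Log2 fold changes that turned in sign were near 0 in each case: Hif3a in MSC against control at 0.051 with quantile normalization, Hif1an in TLR3-MSC against control at 0.0445 (edgeR) and 0.028 (DESeq2), Egln1 in STING-MSC against MSC at -0.037 (edgeR) and -0.0095 (DESeq2), in TLR3-MSC against MSC at -0.026 in both and in STING-MSC against TLR3-MSC at -0.010 (edgeR), and Egln3 in STING-MSC against TLR3-MSC at 0.011 (quantile). The log2 ratio of Epas1 to Hif1a by group medians was -0.050 in MSC against control and 0.064 in TLR3-MSC against MSC.

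When single joints were left out, members called ran from 0 to 1 in each of MSC and STING-MSC against control, STING-MSC against MSC and STING-MSC against TLR3-MSC. Partner genes ran from 3 to 8, 1 to 3 and 2 to 5 (MSC, TLR3-MSC and STING-MSC against control), 1 to 3 and 0 to 1 (STING-MSC and TLR3-MSC against MSC) and 0 to 1 (STING-MSC against TLR3-MSC). Target genes ran, in the same order, from 0 to 6, 0 to 2, 3 to 9, 1 to 5, 1 to 2 and 0 to 3. Fold changes that crossed 0 in MSC against control were those of Epas1 (-0.17 to 0.00093), Hif3a (-0.28 to 0.13) and Egln3 (-0.13 to 0.14). In TLR3-MSC against control they were Hif1a (-0.32 to 0.0041), Arnt (-0.0019 to 0.041), Egln1 (-0.30 to 0.029), Egln2 (-0.087 to 0.13), Egln3 (-0.32 to 0.0088) and Hif1an (-0.16 to 0.095), and in STING-MSC against control Egln2 (-0.023 to 0.15) and Hif1an (-0.014 to 0.21). In STING-MSC against MSC they were Egln1 (-0.10 to 0.24) and Vhl (-0.066 to 0.024), and in TLR3-MSC against MSC Hif1a (-0.11 to 0.25), Epas1 (-0.10 to 0.076), Egln1 (-0.15 to 0.20), Egln2 (-0.0062 to 0.21), Egln3 (-0.33 to 0.0046) and Vhl (-0.048 to 0.020). In STING-MSC against TLR3-MSC they were Egln1 (-0.14 to 0.19), Egln2 (-0.062 to 0.16), Egln3 (-0.19 to 0.14) and Vhl (-0.059 to 0.031). The ratio of Epas1 to Hif1a ran from -0.079 to 0.21 (TLR3-MSC against control), -0.0022 to 0.27 (STING-MSC against MSC) and -0.23 to 0.080 (TLR3-MSC against MSC), and that of Egln3 to Egln1 from 0.090 to 0.34 (MSC) and -0.19 to 0.058 (TLR3-MSC against control), -0.42 to -0.17 (STING-MSC against MSC) and -0.13 to 0.11 (STING-MSC against TLR3-MSC).

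The replicate numbers did not pair the mice: joints of the same number came from different mice, and their deviations correlated at -0.66 to 0.46. The replicate block changed no member's call. It lost the calls of Loxl2 in STING-MSC and Ddit4 in TLR3-MSC against control.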
